A study of Drosophila melanogaster with 16 samples.

Results

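The proteins that build the core of the spliceosomal small nuclear ribonucleoproteins (snRNPs) were followed in Drosophila S2 cells through the mRNA of 10 genes of the 17737 in the count table. They were chosen by name, with earlier results of these data known. The 10 are the 7 genes of the Sm ring (SmB, SmD1, SmD2, SmD3, SmE, SmF and SmG) and the 3 genes of the proteins that mark the U1 snRNP (snRNP-U1-70K, snRNP-U1-C and snf). All 10 matched a row by FlyBase identifier and all 10 were tested in every comparison. The study asked what PARP1, the nuclear enzyme that adds poly(ADP-ribose) to proteins, does by its presence and what it does by its enzymatic activity. S2 cells, a cultured line from late embryos with features of blood cells, were left untreated (WT), given PJ34, an inhibitor of PARylation, at 10 µM for 16 h (PARPi), or depleted of PARP1 by siRNA (KD). The labels place 3 WT, 3 PARPi and 3 KD libraries in December, and 3 WT and 4 KD libraries in October, with no PARPi library in October. All 16 libraries came from ribosomal-depleted total RNA of the same cell line. The study states that its samples and controls were matched for growth time and density. It describes 3 replicates in each of 3 groups, so matching between the months is not stated. The study describes its RNA-seq as independent experiments, without tying them to a month. Neither the labels nor its methods say what else differed between the months, or which libraries came from separate cultures, so the p-values measure the spread between these libraries, which may be technical.

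In splicing, Sm proteins close a ring around a short uridine-rich site on the U1, U2, U4 and U5 snRNAs. The ring is put together in the cytoplasm from SmD1-SmD2, SmB-SmD3 and SmE-SmF-SmG subcomplexes with the help of the SMN complex, and it is needed for the snRNP to be stable and to return to the nucleus. U1 snRNP is the particle that first pairs with the 5′ splice site, and it carries the U1-70K and U1-C proteins beside the ring. The fly protein Snf does the work of a pair of related proteins of other animals, one on U1 and one on U2, so it is found on both snRNPs.

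Total counts ran from 58531662 to 61728755 in WT October, from 65799490 to 78807134 in KD October, and from 77671859 to 90439074 over the December groups. Each of the 10 genes was read deeply, with counts from 1401 (SmD3 in its lowest library) to 17901 (SmD2 in its highest), so that counting error was at most 2.67% of a level. Blood cell markers fixed for S2 cells were present, with 6 of 9 at 1 CPM (read count scaled to the depth of the library) or more in the December groups and 7 of 9 in the October groups. Their summed level was 812 to 1015 CPM in December and 461 to 494 CPM in October. The hemocyte gene Hml alone stood at 215 to 355 CPM in December and at 11.1 to 17.9 CPM in October. The markers did not move together. Of the 9, 4 were called higher and 4 lower in WT October than in WT December, against 31.1% and 30.3% of all genes. Their median log2 fold change was 0.16, and crq had a mean of 207 CPM in WT December and 231 CPM in WT October. Of 10 markers of neurons, muscle, germ line, ovary and fat body, 1 (elav) reached 1 CPM, and their sum was 28.1 to 42.3 CPM. The mRNA of Parp1, the target of the siRNA, was not called lower in KD: its log2 fold change was -0.14 in December (edgeR adjusted p = 0.320) and -0.15 in October (edgeR adjusted p = 0.0962). The KD groups are therefore the libraries labelled KD. Depletion of the protein was checked by Western blot in the study, without a statement of which libraries this covers, and the transcript level does not check the label.

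The genes are short and, with 1 exception, have less than 1 kb of exon. SmB (FBgn0262601) lies on the minus strand of 2L from 10425483 to 10426627 with 776 bases of exon and codes for 199 residues, by the BDGP6 annotation. SmE (FBgn0261790) lies on the same arm from 7884930 to 7885450 with 521 bases of exon. SmD1 (FBgn0261933) is on 3L from 12733364 to 12734611 with 729 bases, and SmD2 (FBgn0261789) on 3R from 6345000 to 6345911 with 778 bases. SmG (FBgn0261791, SNRPG in the annotation) is on X from 16639810 to 16640419 with 483 bases. SmD3 (FBgn0023167, 744 bases) and SmF (FBgn0000426, 467 bases) are neighbours on 2R, 13840 bases apart. Of the U1 genes, snRNP-U1-C (FBgn0261792) is on 3R from 18982964 to 18983650 with 687 bases, snf (FBgn0003449) on X from 5309242 to 5310501 with 835 bases, and snRNP-U1-70K (FBgn0016978) on 2L from 6968711 to 6971737 with 2948 bases. The median of the 10 was 736.5 bases, against 1404 bases over all matched genes. An antisense gene, asRNA:CR46194, overlaps 279 bases (37.5%) of the SmD3 exons, and CG17919 on the opposite strand overlaps 88 bases (11.3%) of the SmD2 exons. Whether the counting used strand is not given in the sources, so reads from these stretches cannot be assigned with certainty to 1 of the overlapping genes.

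Per length of exon, these were among the abundant mRNAs of the cell, but they were not present in equal amounts. In WT December the median level of the 10 genes was 183 CPM per kb, against 2.84 CPM per kb over all genes. SmE led with 335.8 ± 26.8 CPM per kb (SD, n = 3), followed by SmF at 300.4 ± 22.5, SmD2 at 267 ± 18.1 and SmB at 241 ± 27.8. SmD1 (187 ± 14.3) and SmG (179 ± 17.0) came next. SmE and SmF, SmD2 and SmB, and SmD1 and SmG overlapped in their ranges over the 3 libraries, and all other neighbours in the order were apart. The U1 genes and SmD3 were lower: snRNP-U1-C at 104 ± 6.44, SmD3 at 84.9 ± 6.97, snf at 58.9 ± 2.87 and snRNP-U1-70K at 30.2 ± 1.21 CPM per kb. The highest gene was thus 11.1-fold above the lowest in WT December, and SmD3 was the lowest of the 7 ring genes although each ring holds 1 copy of each protein. In WT October SmD3 stood at 31.1 ± 5.03 CPM per kb, below snf at 75.3 ± 2.43, and the span was 13.2-fold. No gene moved by more than 1 rank between both months. For all 10 genes the longest transcript is as long as the summed exons, so both lengths give the same levels.

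**Figure D1:**
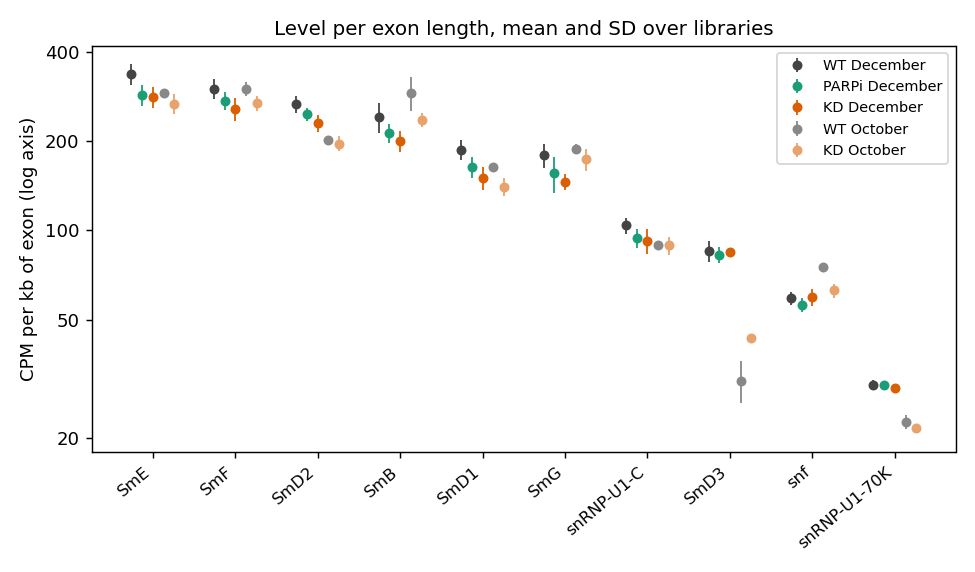
Level of the 10 mRNAs per kb of summed exon (vertical log axis, CPM per kb) in the 5 groups, with points for the mean and bars for the SD over 3 libraries (4 for KD October). The ring genes other than SmD3 lie above 100 in every group, and SmD3 drops from 84.9 in WT December to 31.1 in WT October.

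PARPi was compared with WT in December to see whether blocking the activity of PARP1 changes these mRNAs. No gene of the 10 was called, and the estimates of all 10 were below 0, from -0.24 (SmE) to -0.0076 (snRNP-U1-70K), with a median log2 fold change of -0.15 against -0.0099 over all genes. PARPi changed few genes anywhere, as 0.290% of all genes were called in either direction. SmE, a partner of SmF and SmG in the ring, was at 160, 187 and 177 CPM in WT and at 139, 162 and 146 CPM in PARPi (libraries 1 to 3). The groups overlapped in 1 place, since the second PARPi library was above the first WT library. The log2 fold change of SmE was -0.24 ± 0.078 (SE) with an unadjusted p of 0.00544 and an adjusted p of 0.216 (edgeR quasi-likelihood test, Benjamini-Hochberg). For all 10 genes at least 1 PARPi library lay within or above the WT range, while 6.45% of all genes had every PARPi library below every WT library. With edgeR 4 of the 10 had an unadjusted p under 0.05 (SmB, SmD1, SmE and SmG), and DESeq2 also called none. The 95% interval of the log2 fold change reached from -0.41 to -0.079 for SmE and from -0.14 to 0.13 for snRNP-U1-70K. SmE was not called although its estimate was a change of -15.5%. The lack of calls therefore does not exclude differences of that size at this depth and number of libraries.

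In the December KD libraries 4 ring genes were lower than in WT and none of the 10 was higher. SmD1, SmG, SmB and SmE fell by 16.4% to 19.9%, while SmD3, snf and snRNP-U1-70K stayed within 3% of WT in their estimates. Over all genes tested, 5.65% were called lower. SmD1, which pairs with SmD2 in the ring, was at 124, 141 and 143 CPM in WT and at 99.7, 119 and 110 CPM in KD. Every KD library was below every WT library. Its log2 fold change was -0.32 ± 0.079 (SE, edgeR adjusted p = 0.0143). SmG, the smallest ring protein, was at 77.5, 93.7 and 88.1 CPM in WT and at 66.6, 75.2 and 69.8 CPM in KD, again without overlap. The log2 fold change of SmG was -0.30 ± 0.088 (edgeR adjusted p = 0.0376).

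SmB, the ring protein with a long C-terminal tail, was at 163, 194 and 205 CPM in WT December and at 142, 168 and 155 CPM in KD. The highest KD library was above the lowest WT library, so the groups overlapped. Its log2 fold change was -0.28 ± 0.084 (edgeR adjusted p = 0.0454). SmE was at 138, 161 and 142 CPM in KD, and here too 1 KD library passed the lowest WT library. The log2 fold change of SmE was -0.26 ± 0.078 (edgeR adjusted p = 0.0454). SmF and SmD2 missed the threshold narrowly. SmF was at 131, 152 and 137 CPM in WT and at 111, 131 and 117 CPM in KD, every KD library below every WT library, with a log2 fold change of -0.24 (edgeR adjusted p = 0.0648). SmD2 was at 191, 215 and 216 CPM in WT and at 173, 192 and 172 CPM in KD, which overlap, with a log2 fold change of -0.22 (edgeR adjusted p = 0.0640). In 3 of the 10 genes every KD library was below every WT library, against 12.2% of all genes.

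Of the U1 genes, none was called in December KD. snRNP-U1-C, a zinc finger protein that steadies the pairing of U1 snRNA with the 5′ splice site, was at 66.3, 74.0 and 73.9 CPM in WT and at 60.4, 70.1 and 59.4 CPM in KD. Its log2 fold change was -0.18 with a 95% interval from -0.34 to -0.021 (edgeR adjusted p = 0.177). snRNP-U1-70K, which binds a stem loop of U1 snRNA and contacts SR proteins, was at 85.9 to 92.8 CPM in WT and at 84.9 to 89.9 CPM in KD. Its estimate was -0.038 with an interval from -0.17 to 0.095. The remaining 2 genes gave intervals of similar width around 0: SmD3 from -0.16 to 0.13 and snf from -0.14 to 0.15. Thus a fall as large as that of SmD1 lies outside the interval of each of these 3 genes.

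**Figure D2:**
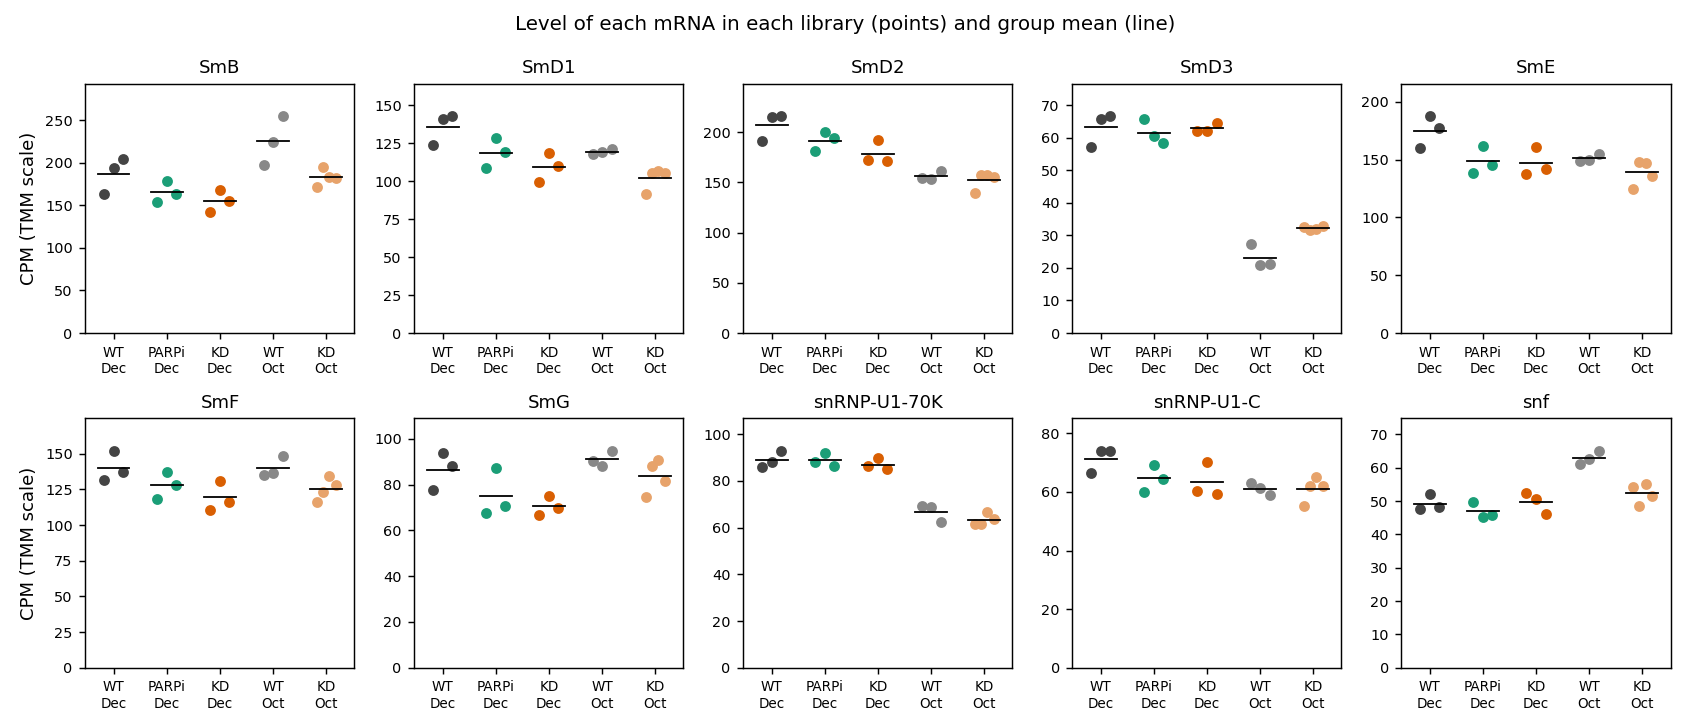
Level of each mRNA in each of the 16 libraries (points, CPM on 1 TMM scale, vertical axes from 0) with the group mean as a line. SmD1, SmF and SmG have every December KD library below every December WT library, and SmD3 is at 57.2 to 66.6 CPM in WT December but at 20.8 to 27.5 CPM in WT October.

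The December calls rested on small margins. The summed blood cell markers were at 890 to 1015 CPM in WT December and at 812 to 896 CPM in KD December. Most of the difference between the 2 groups lay in Hml, with a mean of 302 CPM in WT and 230 CPM in KD. The means of srp (213 and 217 CPM), ush (156 and 156 CPM) and crq (207 and 204 CPM) hardly moved. Of the 9 markers, 7 had estimates below 0 and 1 was called lower, against 5.65% of all genes. Their part in these results was not tested, and in bulk RNA fewer cells of a kind and less RNA per cell cannot be told apart. When 1 library was left out, the count of called members moved with the share of all genes called in either direction, 7.73% with all libraries. No member was called without KD library 1 (2.54% of all genes), KD library 3 (2.17%), WT library 2 (3.60%) or WT library 3 (2.23%). Without PARPi library 3 there was 1 (6.71%), and without PARPi library 2 there were 4 (7.95%). Leaving out WT library 1 gave 5 (8.09%), PARPi library 1 gave 6 (9.97%) and KD library 2 gave 7 (10.5%). KD was also compared directly with PARPi, which share the WT libraries as their control: none of the 10 differed, none had an unadjusted p under 0.05 with edgeR, DESeq2 called none either, and the estimates ran from -0.12 (SmD1) to 0.082 (snf), while 5.52% of all genes were called in either direction. With the replicate number as a block over all December libraries, WT included, again none of the 10 was called, against 14.8% of all genes. Whether the numbers pair these libraries is uncertain. In their deviations from the group mean, same-numbered KD and PARPi libraries correlated at 0.13 to 0.57, and KD library 2 with PARPi library 3 at 0.21. Without the block, the 95% interval of the difference between KD and PARPi was -0.28 to 0.046 for SmD1 and -0.18 to 0.15 for SmE. It was therefore not shown that KD and PARPi differ for any of these mRNAs, although without the block 4 were called in KD and none in PARPi. With the block, 7 were called in KD against WT (13.7% of all genes). SmD1, SmE and SmG were then called in PARPi against WT (4.23%).

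In October 5 genes were called in KD, 4 lower and SmD3 higher. SmB, SmD1, SmF and snf fell by 20.2%, 15.5%, 11.8% and 18.1%, and SmD3 was 36.9% higher. Over all genes, 14.0% were called lower and 13.8% higher in this comparison. SmB was at 197, 224 and 255 CPM in WT and at 171, 195, 183 and 182 CPM in KD. All KD libraries were below all WT libraries, though the highest KD and the lowest WT library were close together. The log2 fold change of SmB was -0.32 ± 0.068 (edgeR adjusted p = 0.00108). SmD1 was at 118, 119 and 121 CPM in WT and at 91.9, 106, 107 and 106 CPM in KD, with a log2 fold change of -0.24 ± 0.053 (edgeR adjusted p = 0.00153). Here the WT libraries were tight and KD library 1 stood apart below the other 3 KD libraries.

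SmF was at 135, 136 and 148 CPM in WT October and at 116, 123, 134 and 128 CPM in KD, with a log2 fold change of -0.18 ± 0.054 (edgeR adjusted p = 0.0147). The groups did not overlap, but the call was lost without WT library 3 (-0.13, edgeR adjusted p = 0.0912). The other 2 proteins of its subcomplex were not called. SmE was at 149, 150.0 and 155 CPM in WT and at 125, 148, 147 and 136 CPM in KD (log2 fold change -0.15, edgeR adjusted p = 0.0562), without overlap. SmG was at 90.3, 88.1 and 94.7 CPM in WT and at 74.7, 88.2, 91.0 and 81.8 CPM in KD, which overlap (log2 fold change -0.14, edgeR adjusted p = 0.0801). Every KD library was below every WT library in 5 of the 10 genes (SmB, SmD1, SmE, SmF and snf), against 14.6% of all genes. SmD2, the partner of SmD1, was at 154 to 161 CPM in WT and at 139 to 158 CPM in KD, with a log2 fold change of -0.059 and an interval from -0.17 to 0.048.

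Of the U1 genes, snf fell in October KD and the other 2 were not called. snf was at 61.0, 62.7 and 65.0 CPM in WT and at 54.2, 48.6, 55.0 and 51.6 CPM in KD, with a clear gap between the groups. Its log2 fold change was -0.29 ± 0.051 (edgeR adjusted p = 0.000218). snRNP-U1-70K was at 62.4 to 69.3 CPM in WT and 61.6 to 66.6 CPM in KD (log2 fold change -0.098, interval from -0.20 to 0.0043). snRNP-U1-C was at 58.9 to 63.1 CPM in WT and 55.2 to 65.0 CPM in KD (log2 fold change -0.022, interval from -0.13 to 0.091).

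SmD3, the partner of SmB in the ring, was the gene that moved against the others. It was at 27.5, 20.8 and 21.2 CPM in WT October and at 32.6, 31.7, 31.9 and 32.8 CPM in KD. The KD libraries were almost equal and all above WT, where library 1 was higher than the other 2. The log2 fold change was 0.45 ± 0.073 (edgeR adjusted p = 8.10e-05), and it stayed between 0.38 and 0.59 under every alternative run for October, with an adjusted p of at most 0.00213. The antisense gene asRNA:CR46194 was also at a higher level in KD October, at 5.65 to 6.93 CPM against 3.97 to 4.80 CPM in WT October. Its part in the SmD3 result was not tested.

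**Figure D3:**
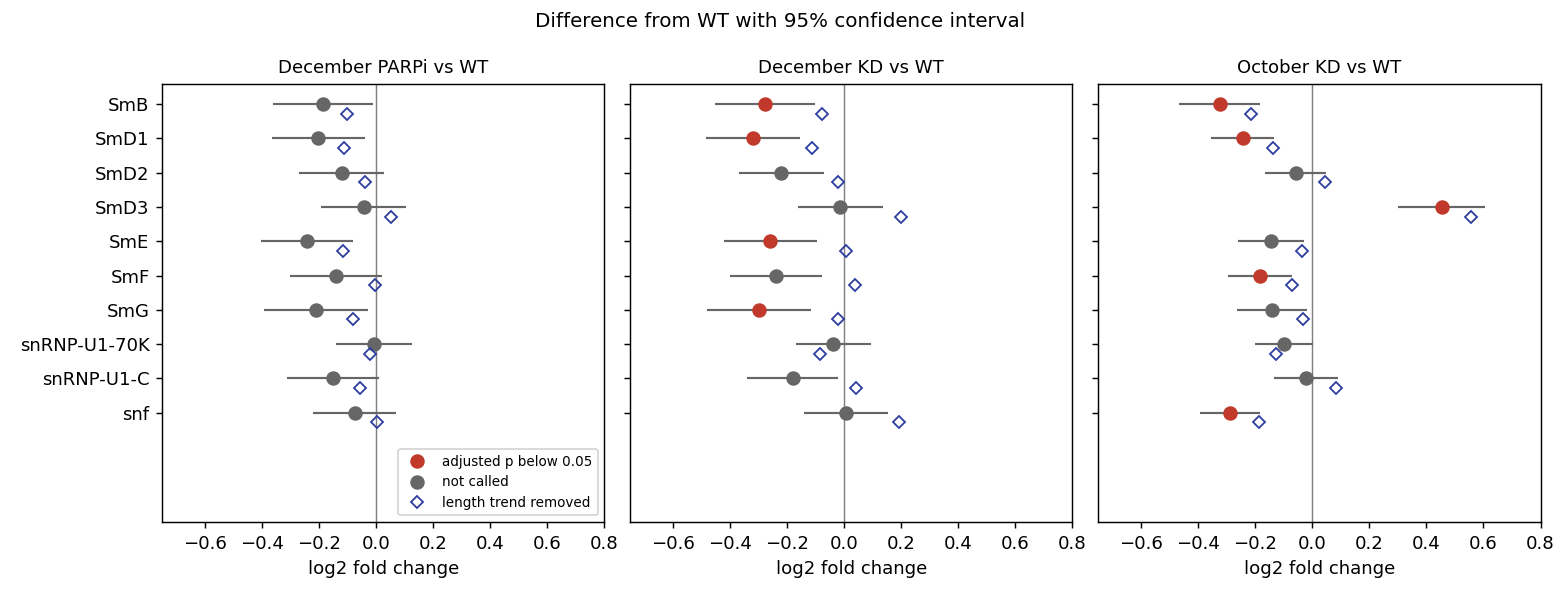
Log2 fold change against WT (horizontal axis) with its 95% interval for the 10 genes in December PARPi, December KD and October KD. Red points had an adjusted p below 0.05, grey points were not called, and open diamonds give the estimate after the trend of counts on exon length was removed, which moves the short genes toward or above 0 in December KD but leaves SmD3 at 0.56 and snf at -0.19 in October KD.

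Whether the KD difference was the same in both months was tested over the 13 WT and KD libraries. It differed for SmD3 and for snf, which are 2 of the 10 genes, against 14.1% of all genes called in either direction. For SmD3 the log2 fold change was larger in October than in December by 0.48 ± 0.10 (edgeR adjusted p = 0.00169). SmD3 was at 57.2, 65.7 and 66.6 CPM in WT December and at 62.1, 62.0 and 64.4 CPM in KD December, groups that overlap, unlike those of October. For snf the October difference was lower by -0.28 ± 0.085 (edgeR adjusted p = 0.0258). snf was at 47.6, 52.0 and 48.1 CPM in WT December and at 52.4, 50.5 and 46.1 CPM in KD December, which also overlap. The snf call was lost in 6 of the 13 fits that left out 1 library (KD December 1, WT December 1, WT December 3, KD October 2, KD October 4 and WT October 3), where the adjusted p was 0.0524 to 0.0768, and of all alternatives run the SmD3 call was lost only with library sizes set without the top genes (0.27, edgeR adjusted p = 0.0758). For the other 8 genes no difference between months was called, and their estimates ran from -0.044 (snRNP-U1-70K) to 0.18 (SmD2). SmB had an estimate of -0.029 with an interval from -0.25 to 0.20.

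Between the untreated cells of both months 8 of the 10 genes were called. Of these, 6 were lower and 2 higher in WT October than in WT December, against 30.3% and 31.1% of all genes. SmD3 was lower by far the most, falling by 63.3% from 57.2 to 66.6 CPM in December to 20.8 to 27.5 CPM in October (log2 fold change -1.45 ± 0.078, edgeR adjusted p = 2.89e-16). SmD2 and snRNP-U1-70K followed at a log2 fold change of -0.41 each, and snRNP-U1-C (-0.23), SmE (-0.21) and SmD1 (-0.19) were lower by less. With library sizes set without the top genes, SmD2 (-0.043) and snRNP-U1-70K (-0.047) were no longer called and the estimates of snRNP-U1-C (0.14), SmE (0.16) and SmD1 (0.18) turned positive. Upper-quartile factors also ended the calls of SmD1 (-0.020), SmE (-0.040) and snRNP-U1-C (-0.057). The call of SmD1 was also lost without WT December library 2 or 3, and that of SmE without WT December library 2. In the 6 genes called lower, every WT October library was below every WT December library. Over all genes, 31.4% had every WT October library lower and 34.1% had every one higher. snf was higher in October, at 61.0 to 65.0 CPM against 47.6 to 52.0 CPM (log2 fold change 0.35, edgeR adjusted p = 1.11e-05), with no overlap. SmB was also called higher (0.27, edgeR adjusted p = 0.00511) but its groups overlapped, and the call was lost without WT December library 1 (0.18), without WT October library 3 (0.17) and with the length trend removed (0.062). SmF (-0.0043, interval from -0.14 to 0.13) and SmG (0.075, interval from -0.070 to 0.22) were not called. The antisense gene within SmD3 was at 7.07 to 7.20 CPM in WT December and at 3.97 to 4.80 CPM in WT October, and its part in the SmD3 difference was not tested. Month stands here for everything that differed between both sets of libraries. This includes the lower blood cell marker sum, in which single markers moved in both directions, and a lower Parp1 level in October (log2 fold change -1.12). These differences cannot be told apart.

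The share of SmD3 was followed further, as it differed most between the months among the ring genes. Shares of the other ring genes were not computed. Set against the summed CPM of the other 6 Sm genes of the same library, SmD3 was 6.68% to 6.89% in WT December, 6.79% to 8.55% in PARPi December and 7.33% to 8.51% in KD December. In October it was 2.26% to 3.26% in WT and 3.87% to 4.54% in KD, so that the KD range lay above the WT range in both months and both October ranges lay below all of December. This ratio compares genes within 1 library and does not depend on the scaling between libraries. In December KD the level of SmD3 itself hardly changed (log2 fold change -0.014), while the estimates of the other 6 Sm genes were below 0. The same ratio for snf was 4.97% to 5.62% in WT December and 5.97% to 7.18% in KD December, while in October it was 6.96% to 7.23% in WT and 5.95% to 7.55% in KD.

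Except for SmD3, snf and snRNP-U1-70K, a grouping made after the values were seen, the genes varied together between libraries of 1 group. Over the 16 libraries, deviations from the group mean gave a correlation of 0.52 to 0.95 in the 21 pairs among SmB, SmD1, SmD2, SmE, SmF, SmG and snRNP-U1-C. Over the same libraries SmD3 gave -0.26 to 0.40 in its 9 pairs, snf gave -0.28 to 0.10 and snRNP-U1-70K gave 0.019 (with snf) to 0.70 (with snRNP-U1-C). These are descriptions over libraries that share their depth and scaling. WT December library 1 was the lowest of its group for all 10 genes, PARPi library 1 for 7 of 10, KD December library 1 for 5 of 10 and KD October library 1 for 7 of 10. Leaving out the 3 December libraries numbered 1, a step chosen after seeing this, gave 5 called genes in December KD (8.54% of all genes in either direction), 0 in PARPi (1.44%) and 1, SmD3, in the comparison of months (11.9%).

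The members that were lower in KD are short, and short genes as a class were lower in KD. Among genes at 1 CPM or more with under 1 kb of exon (1229 genes), the median log2 fold change in December KD was -0.21 and 32.8% were called lower, against -0.0027 and 5.23% for 1 to 3 kb (4012 genes) and 0.059 and 1.46% for over 3 kb (2401 genes). The median of the 10 genes, -0.23, was close to that of the shortest class. In October KD the medians of the 3 classes were -0.12, -0.031 and 0.080, and 35.2% of the shortest class was called lower. With the trend of counts on exon length removed within each library, none of the 10 genes was called in December KD (6.67% of all genes). The median of the 10 was -0.0077, SmE (0.0069), SmF (0.040), snRNP-U1-C (0.040) and SmD3 (0.20) turned positive, and snf moved to 0.19. In October KD, where 25.8% of all genes were then called, the same step left SmB (-0.22, edgeR adjusted p = 0.00433), SmD1 (-0.14, edgeR adjusted p = 0.0254), snf (-0.19, edgeR adjusted p = 0.00589) and SmD3 (0.56, edgeR adjusted p = 1.31e-05) called. It ended the call of SmF (-0.072, edgeR adjusted p = 0.250) and added snRNP-U1-70K (-0.13, edgeR adjusted p = 0.0413). Exon length moved with these results, and its part in them was not tested beyond this adjustment.

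**Figure D4:**
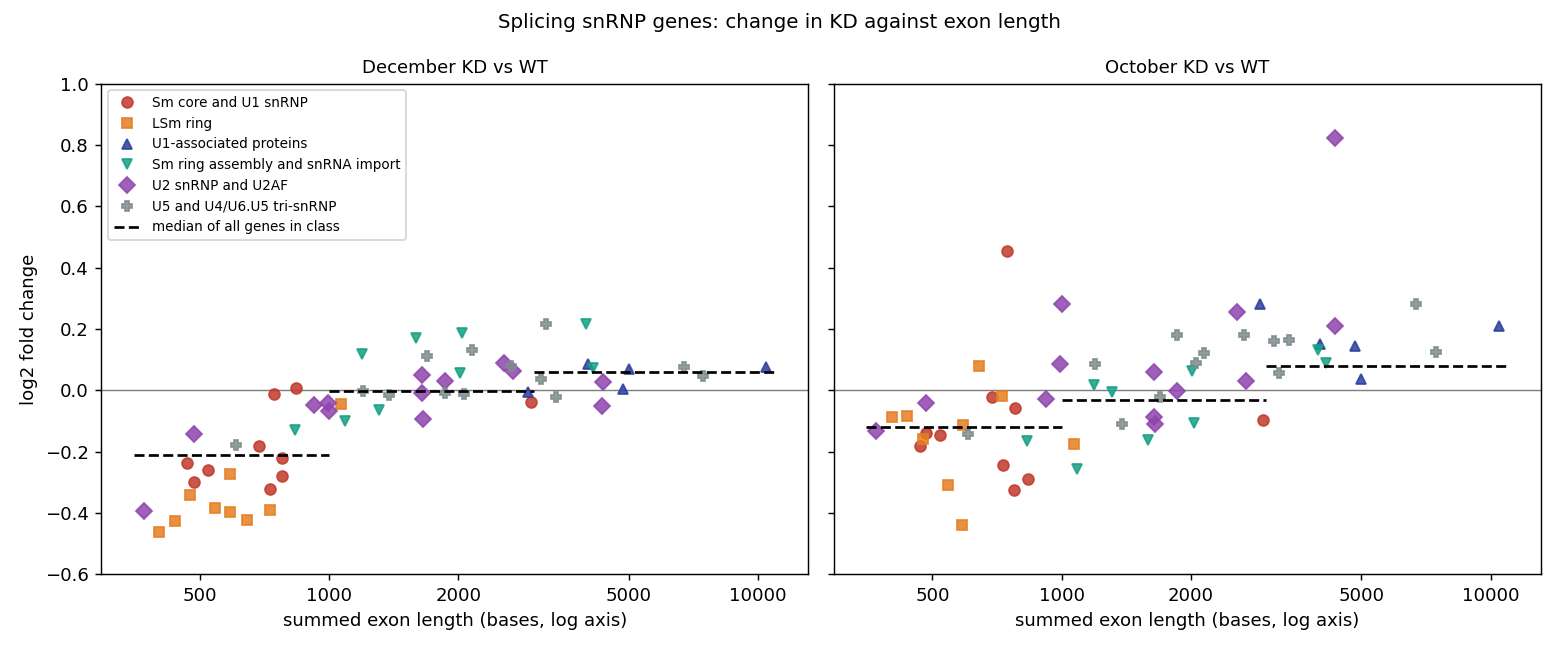
Log2 fold change in KD against the summed exon length of the gene (horizontal log axis, bases) for the Sm core and U1 genes and 5 other lists of snRNP genes, in December and October. Dashed lines are the medians of all genes under 1 kb, of 1 to 3 kb and over 3 kb (-0.21, -0.0027 and 0.059 in December); most Sm genes lie near the lowest line and most LSm genes below it in December, and SmD3 lies far above it in October.

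Other genes of the snRNP pathway were taken from lists, whose counts stand beside shares over all genes of 5.65% lower and 2.08% higher in December KD, 14.0% lower and 13.8% higher in October KD, and 14.1% in either direction for the comparison of months. In PARPi none of the genes on these lists was called. The LSm list holds genes of the ring that resembles the Sm ring and caps U6 snRNA. It also takes in genes outside that ring, such as Lsm10, so its counts are not counts of the U6 ring. These genes are as short as the Sm genes (median exon 586 bases). Of the 9 tested, 6 were lower in December KD, among them LSm8 (-0.46) and LSm2 (-0.43). In October KD 3 of the 9 were lower, among them LSm5 (-0.44) and Lsm10 (-0.31), a protein of the U7 snRNP. In the comparison of months the KD difference of 4 LSm genes was higher in October, as for LSm3 (0.52) and LSm8 (0.39). Proteins that join U1 more loosely are made by long genes (median exon 4834 bases), and 3 of 5 were higher in October KD, led by Prp40 (0.28) and Luc7 (0.21), with none called in December KD. Of the genes for ring assembly and snRNA import, 9 of 11 were tested and 1 changed in October KD, Smn (-0.26), which codes for the protein that loads the ring, with none called in December KD. Phax, the adaptor for export of snRNA, had a KD difference that was lower in October by -0.31. Among 13 genes of U2 snRNP and U2AF, Sf3b5 was lower in December KD (-0.39), and 4 were higher in October KD, led by Sf3b3 (0.82) and U2A (0.28). Among 13 tested genes of U5 and the tri-snRNP, Sart1 was higher in December KD (0.22) and 5 were higher in October KD, led by the helicase Brr2 (0.28) and Prp28 (0.18). Brr2 was also the 1 listed gene that differed between KD and PARPi in December (0.29). Between the WT libraries of both months, where 30.3% of all genes were lower and 31.1% higher in October, 9 of 13 U2 genes were lower, led by Sf3b3 (-2.89) and U2A (-1.56), and 1 was higher (Sf3b6, 0.18). In the same comparison 7 of 13 U5 and tri-snRNP genes were lower and 3 higher, 3 of 5 loosely bound U1 proteins were lower, among them Prp39 (-0.87), and 1 was higher, 4 of 9 LSm genes were lower and 3 higher, and 2 of 9 assembly genes moved in each direction. The 5 U1 snRNA genes themselves gave a summed count of 6 to 34 in a library, too few to compare with the proteins that bind the RNA.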

How the data were processed

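RNA of Drosophila S2 cells was measured in 16 libraries. The authors checked reads with FastQC 0.10.1, aligned them to BDGP6 with STAR 2.6, counted them per gene with HTSeq 0.10.0 and deposited raw counts without normalization. DESeq2 is also listed among the tools in the submitters' notes. Not given in the sources used here are the annotation release, the use of strand and what was done with reads that match more than once. The table holds 17737 genes, 2559 of them at 0 in every library, and 17599 matched the Ensembl annotation of BDGP6 (release 115), which gave positions and exon lengths. Members and gene lists were chosen with earlier results of these data known.

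A gene needed at least 10 counts over the libraries fitted. Tests were edgeR's quasi-likelihood F-tests on TMM-scaled counts (version 4.0.16 in R 4.3.3), and p-values were adjusted by Benjamini-Hochberg over all genes tested, with a threshold of 0.05. December was fitted over 9 libraries in 1 model of 3 groups, October over 7, and the difference between months over the 13 WT and KD libraries. Levels are CPM on 1 TMM scale over all 16 libraries, and intervals are 95%. At total counts of 58531662 to 90439074 per library, counting error was at most 2.67% of a member's level. Chi-square values of 7.35 to 131 per gene between replicates exceeded sampling noise. Each library was counted as 1 sample, although this excess cannot show whether libraries came from separate cultures. All 10 members are named, with Parp1, and from the other lists up to 2 genes per direction and comparison, by the largest log2 fold change among genes called with a mean of at least 1 CPM. Alternatives were DESeq2 1.42.0, other size factors, other filters, other sets of libraries, the replicate number as a block, removal of a trend on exon length (spline with 5 degrees of freedom) and fits without each library in turn. Deviations of same-numbered KD and PARPi libraries of December correlated at 0.13, 0.33 and 0.57, and those of KD library 2 and PARPi library 3 at 0.21. For that comparison the number was tried as a pairing, seen in these same data, in a fit that also held the WT libraries. The scripts were tested on simulated data. Snup, Tgs1 and LSm4, listed at 0 in every library, and hoip, not matched, gave no value.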

Additional observations from a re-analysis of the deposited data

Results flagged for a closer look

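SmD1 in KD library 1 of October stood apart from the other 3 KD libraries: its gap to the nearest, divided by the range of the group, was 0.921, and for SmD2 in the same library it was 0.865, both above 0.829, the 95% limit of Dixon's test for 4 libraries. The 10 members were tested this way in that group, and chance passes the limit in about 1 of 20 groups. The October KD difference of SmD3 was larger than that of December by 0.48 on the log2 scale, and that of snf was lower than that of December by -0.28, both called by the test of the difference.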

How the results depend on the processing

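Over the members and all alternatives, 1124 estimates kept their side of the threshold, 67 of these with a change of sign while called in neither fit, 55 lost and 34 gained a call, and 7 changed sign while called in either fit. In December KD 4 members were called (7.73% of all genes in either direction). With library sizes set without the 20 top genes there were 0, although 11.04% of all genes were then called (1024 of 1295 higher). There was 1 with upper-quartile factors (5.86%) and 1 with edgeR's filterByExpr (8.90%). There were 7 with the replicate block (13.7% of all genes) and 0 with the length trend removed (6.67%, SmE then 0.0069). Leaving out 1 library gave 0 to 7 (2.17% to 10.5%). DESeq2 called 6 (9.40%). PARPi had 3 called members with the replicate block (SmD1, SmE and SmG, against 4.23% of all genes) and 0 in every other fit. In October KD the 5 called members (27.8% of all genes) became 8 with library sizes without the top genes (30.2%). They became 4 to 7 when 1 library was left out (21.4% to 29.0%). The comparison of months had 1 or 2 called when 1 library was left out (11.3% to 14.8% of all genes). It had 1 without the December libraries numbered 1 (11.9% of all genes), where snf was at -0.21 (edgeR adjusted p = 0.130). The median of the members in that comparison became -0.10 with library sizes without the top genes and -0.026 with the length trend removed. For WT October against December, 6 to 8 were called when 1 library was left out (57.9% to 62.2% of all genes). Upper-quartile factors (62.4% of all genes called) called SmF (0.16) and SmG (0.24) higher and ended the calls of SmD1, SmE and snRNP-U1-C. Removal of the length trend (62.7%) called SmF (-0.24) and SmG (-0.16) lower. Library sizes without the top genes gave a median of 0.17. Values were then 0.18 for SmD1, 0.16 for SmE, 0.36 for SmF and 0.14 for snRNP-U1-C. That scaling moved the median of all genes at 1 CPM or more from -0.11 to 0.25 in this comparison and from 0.0050 to 0.13 in December KD, and SmD3 stayed lower in WT October. The cause of these shifts was not tested. Replicate numbers did not pair libraries with WT: deviations of same-numbered libraries correlated at -0.035 to 0.23 (KD) and -0.0032 to 0.14 (PARPi) in December and at -0.0042 to 0.13 in October. The block could not be fitted for WT October against December.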
